A study of Mus musculus with 81 samples.

Results

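The mouse tripartite motif (TRIM) family was followed in RNA-seq libraries of WT macrophages and of macrophages with conditional knockout (cKO) of histone H3.3. Its members were taken by name, as every protein-coding gene whose symbol is Trim with a number and an optional letter, except Trim28, which left 67 of the 22028 protein-coding genes listed. The rule used names alone, but it was set with earlier results of these data known. Of the 67 members, 37 had enough counts to be tested in all 5 experiments, 12 in some and 18 in none, and the 18 never tested had at most 17 counts in any library.

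TRIM proteins carry a RING domain, B-box zinc fingers and a coiled coil, followed in most members by a C-terminal domain that binds the target. Most act as E3 ubiquitin ligases. Many are known from innate immunity, where some bind viral capsids, some attach or assemble ubiquitin chains on the sensors and kinases that induce interferon, and a number of them are themselves interferon-stimulated genes (ISGs). Genes that respond to interferon often carry the interferon-stimulated response element (ISRE) or the gamma-activated site (GAS) near their start.

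WT mice were H3f3a fl/fl and H3f3b fl/fl without cre, and cKO mice carried the same floxed alleles of both H3.3 genes together with LysM cre/cre, on C57BL/6, with males and females at 8 to 10 weeks of age. LysM-Cre acts in macrophages and granulocytes and is inserted in Lyz2, so every comparison of cKO with WT also compares cells without and with Lyz2. Bone marrow cells were grown with L929 conditioned medium, a source of M-CSF, and collected on days 3, 5 and 7 (18 libraries). BMDMs of day 8 were left untreated or given interferon-γ (IFNg) for 12 h (10 libraries), and peritoneal macrophages were isolated with a kit (6 libraries). Another 18 libraries came from BMDMs grown with no antibody, with an IgG1 isotype control antibody or with an antibody against the type I interferon receptor chain IFNAR1, the antibodies being present from day 0. The last 27 came from 3 sets of WT and cKO BMDMs and from BMDMs labelled H3.3cKO:StingKO, H3.3cKO:MavsKO and H3.3cKO:Irf7KO, whose labels name a further deleted gene of interferon induction. Each group had 3 libraries, labelled as biological replicates, except the 2 cKO groups of day 8 with 2 libraries each, because the labels of 2 more cKO libraries contradict themselves over IFNg and left them without a group.

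Levels are given as CPM, counts per 1000000 counts of a library whose size was scaled by TMM, one value per library in the order of the replicate numbers, and differences as log2 fold change ± SE. A member was called higher or lower at an adjusted p under 0.05 in edgeR's quasi-likelihood test, with the Benjamini-Hochberg adjustment over all genes tested. Libraries held 14419697 to 20220329 counts in the time course and 3614967 to 9879339 on day 8. Those of peritoneal macrophages held 7625225 to 23381318, those grown with or without antibody 5295144 to 34380735 and those of the sets 21504555 to 45581528. In cKO, H3f3a was at 6.95% to 27.3% of WT. H3f3b was at 11.5% to 13.3% of WT in the antibody experiment but at 75.0% to 89.5% in the others, and Lyz2 was at no more than 0.271% of WT. All 7 macrophage markers were detected in every group, and the 4 resident peritoneal markers summed to at least 7057 CPM in peritoneal macrophages and to no more than 32.3 CPM elsewhere. In bulk RNA, fewer cells of a type and less RNA per cell cannot be told apart.

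Several members known as ISGs lie next to each other. In GRCm38, Trim6, Trim34a, Trim5, Trim12a, Trim34b, Trim12c and Trim30b, Trim30c, Trim30a and Trim30d stand between positions 104218793 and 104507849 of chromosome 7, an interval called the chromosome 7 cluster here. Trim5, Trim12a and Trim12c are the mouse relatives of primate TRIM5, which binds retroviral capsids, and the Trim30 genes are a rodent group whose best known member, Trim30a, limits Toll-like receptor signalling. Among the members outside the cluster, Trim21, an antibody receptor of the cytosol, Trim25, a ligase of the RNA sensor RIG-I, Trim26, a ligase linked to IRF3, Trim56, a ligase linked to the STING pathway, and Trim14, a RING-less adaptor at mitochondria, were set apart as interferon-linked.

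The promoters of these genes were read from RefSeq (GRCm38.p6), 250 bases before to 50 bases after the start of transcription, and 52 of the 67 members had such a window. The core of the ISRE, searched as a GAAA and another GAAA with any 2 bases between the copies on either strand, stood in the window of 9 of the 52 members (17.3%), against 3.99% of all genes with a window: Trim2, Trim5, Trim12a, Trim12c, Trim21, Trim26, Trim30a, Trim30d and Trim34a. The GAS letters TTCNNNGAA stood in 6 of 52 (11.5%), against 9.55% of all genes. The 60 bases around the motif are shown for 5 members, which are those of the cluster and of the interferon-linked genes whose core lies before the start. Capitals mark the ISRE core as it reads on the strand of the gene, which is TTTC, 2 bases and TTTC for all 5, and in Trim26 the capitals cover 2 overlapping cores.
Trim30a, chr7:104465195-104465254, minus strand: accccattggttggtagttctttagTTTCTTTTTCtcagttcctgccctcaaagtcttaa
Trim30d, chr7:104507856-104507915, minus strand: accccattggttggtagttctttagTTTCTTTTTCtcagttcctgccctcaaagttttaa
Trim5, chr7:104288121-104288180, minus strand: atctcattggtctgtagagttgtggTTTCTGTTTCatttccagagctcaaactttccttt
Trim12c, chr7:104353350-104353409, minus strand: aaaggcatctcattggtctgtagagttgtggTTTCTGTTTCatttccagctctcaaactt
Trim26, chr17:36836961-36837020, plus strand: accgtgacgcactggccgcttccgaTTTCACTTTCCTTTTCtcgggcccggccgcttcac
The stretches of Trim30a and Trim30d are near-identical, and those of Trim5 and Trim12c share the same core within like flanks. Trim21, Trim34a and Trim12a hold their core after the start of transcription. The window of Trim30b held neither set of letters and that of Trim30c held only the GAS letters, which says no more than that these letters are not in these 300 bases.

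Levels between genes were compared per length, as RPKM (CPM per kilobase of exon). In WT cells of day 3, Trim8, a ligase of cytokine signalling, was highest with 55.2 ± 3.99 RPKM (mean ± SD, n = 3), followed by Trim35, a ligase that binds pyruvate kinase M2, with 37.9 ± 2.11, and Trim25 with 36.8 ± 2.89. The ranges of Trim35 and Trim25 overlapped, and both lay below Trim8. By day 7 Trim30a stood second with 49.7 ± 21.3 RPKM in WT, behind Trim8 with 63.3 ± 2.85, and the SDs of Trim30a and Trim25 (45.3 ± 10.9) overlapped. In peritoneal macrophages of WT mice, Trim47, a ligase with a SPRY domain, was highest with 68.8 ± 14.9 RPKM against 36.7 ± 2.74 for Trim8. Peritoneal libraries were also made with another library kit (SMART-Seq v4 against rRNA-depleted libraries), so tissue and kit cannot be told apart. After IFNg, Trim30a was at 213 ± 26.3 RPKM in WT BMDMs, above Trim21 at 59.8 ± 3.92 and above Trim30c and Trim30d at 54.6 ± 9.798 and 53.8 ± 11.2, which did not differ beyond their SDs.

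Day 3 of culture had the most member calls between the genotypes in the time course. There 16 members were higher and 1 lower in cKO of 44 tested, or 38.6% of the members, against 8.65% of all genes tested, 6% higher and 2.64% lower. All 9 tested members of the chromosome 7 cluster and all 5 interferon-linked members outside it were among those higher. Their medians were 2.75 and 0.75 (log2), beside 0.036 over all genes. Both lists were chosen with earlier results of these data known, so these counts describe the lists and do not test them. The other 2 higher members were Trim46, a microtubule-binding protein of neurons, and Trim7, which binds glycogenin. By domain, the 36 members that end in a PRY-SPRY domain had 13 higher and 1 lower of 26 tested. The 3 tested members with NHL repeats and the 3 with a PHD finger and bromodomain had no call in either direction.

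Trim30a was at 41.7, 36.8 and 33.7 CPM in the WT libraries of day 3 and at 236, 220.5 and 295 CPM in cKO. Each cKO library was above every WT library, and the log2 fold change was 2.75 ± 0.40 (adjusted p = 0.000552, edgeR). Trim30d moved from 6.07, 5.57 and 7.97 CPM to 73.8, 66.2 and 89.7 CPM, a log2 fold change of 3.55 ± 0.50. Trim30c had 0.545, 0.411 and 0.225 CPM in WT, only 19 counts over the 3 libraries, and 8.11, 10.7 and 17.04 CPM in cKO. It had the largest fold change of the family on day 3, 4.94 ± 0.84, from the fewest WT counts of the 9 cluster members tested. Trim30b stood at 1.43, 2.35 and 2.25 CPM in WT and 19.2, 14.9 and 20.6 CPM in cKO (3.17 ± 0.63). In all of the Trim30 genes the groups were far apart relative to the spread within them.

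Of the other cluster genes on day 3, Trim34a, an interferon-induced relative of Trim6, was at 3.204, 3.52 and 3.15 CPM in WT and 18.3, 21.5 and 28.8 CPM in cKO, with a log2 fold change of 2.79 ± 0.36. Exons of Trim34a overlap another gene on the opposite strand over 23.5% of their length, and 39.8% of its 50-base words recur in other genes, so its reads may be divided. Trim12a and Trim12c rose by 1.72 ± 0.24 and 1.31 ± 0.22, Trim5 by 1.49 ± 0.35 and Trim6, which builds free ubiquitin chains that activate IKK-epsilon, by 1.46 ± 0.27. Trim5 and Trim12c share 36.3% and 33.0% of their 50-base words with other genes, and their counts are uncertain to that extent.

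Outside the cluster, Trim21 went from 14.04, 16.5 and 12.8 CPM in WT to 42.4, 42.4 and 47.05 CPM in cKO on day 3 (1.60 ± 0.29, adjusted p = 0.0025, edgeR). Trim25 had 221, 192 and 222 CPM and 324, 353 and 392 CPM (0.75 ± 0.21). Both genes were higher in every cKO library than in every WT library, but Trim25 started from a level at which it was among the most abundant members in either genotype. Trim14 rose by 0.87 ± 0.22, Trim56 by 0.59 ± 0.11 and Trim26 by 0.45 ± 0.13 on the log2 scale. Exons of Trim14 overlap Nans on the opposite strand over 38.0% of their length, and counting without strand cannot separate the pair. Trim46 was at 1.09, 0.939 and 1.52 CPM in WT and 4.71, 6.77 and 7.005 CPM in cKO, and Trim7 rose from 22 to 87 counts over 3 libraries. Trim47 was the single member lower in cKO, at 28.2, 28.7 and 24.4 CPM against 43.7, 53.3 and 34.03 CPM in WT (-0.69 ± 0.20).

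The count of 17 members called on day 3 fell to 11 without WT replicate 2 and to between 12 and 15 when another of the libraries was left out. Neutrophil markers, 8 of 8 detected, summed on day 3 to 1583 to 3038 CPM in WT and 2732 to 4205 CPM in cKO, and these ranges overlapped. The 6 proliferation markers summed to 1250 to 1799 CPM in WT and 959 to 1063 CPM in cKO. Resident peritoneal markers, 2 of 4 detected, summed to 7.84 to 9.32 CPM in WT and 16.6 to 17.6 CPM in cKO. Dendritic cell markers, up to 2 of 4 detected, summed to 1.16 to 3.70 and 3.97 to 5.07 CPM. B cell markers, 5 of 5 detected, summed to 31.6 to 41.2 CPM in WT and 61.7 to 100.2 CPM in cKO. Their part in the result was not tested. The interferon pathway itself, a list of 20 sensors, kinases, receptors, transcription factors and ISG15 enzymes, had 12 genes higher and 1 lower on day 3.

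On day 5, 8 members were higher and none lower in cKO (18.2% of the 44 tested, against 3.12% of all genes, 2.46% higher and 0.658% lower). All 8 were also called on day 3, where 38.6% of the members tested and 8.65% of all genes were called. They were Trim30a, Trim30b, Trim30c, Trim30d, Trim34a, Trim12c, Trim25 and Trim46. Trim30a was at 112, 57.4 and 53.7 CPM in WT and 473, 163 and 177 CPM in cKO (1.86 ± 0.39, adjusted p = 0.0152, edgeR). In both genotypes replicate 1 was well above the other 2 libraries, and the groups still did not overlap. The same held for Trim30c, with 2.21, 0.829 and 0.568 CPM in WT and 28.5, 5.25 and 5.97 CPM in cKO. None of the 8 calls was left without WT replicate 2, without WT replicate 3 or without cKO replicate 1, nor in a model of the 2 groups alone. The neutrophil sum was 485.7 to 585 CPM in WT and 504 to 1741 CPM in cKO on day 5. The resident peritoneal sum was 7.13 to 8.36 CPM in WT and 14.2 to 25.2 CPM in cKO, and the dendritic cell sum 1.49 to 1.61 and 2.01 to 5.39 CPM. Stromal markers, 3 of 4 detected, summed to 13.1 to 42.3 CPM in WT and 67.5 to 95.3 CPM in cKO, and proliferation markers, 6 of 6 detected, to 2175 to 2330 CPM in WT and 1328 to 2071 CPM in cKO. Their part in the result was not tested. The interferon pathway had 12 of 20 genes higher.

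On day 7 no member was called by edgeR, DESeq2 or any other setting tried, against 1.82% of all genes, and 6 members had an unadjusted p under 0.05. Trim30a was at 303, 175 and 135 CPM in WT and 366, 279 and 302 CPM in cKO, and the groups overlapped (0.63 ± 0.38, adjusted p = 0.426, edgeR). Trim12a, at 23.3, 34.6 and 21.4 CPM in WT and 23.4, 23.6 and 24.3 CPM in cKO, had a difference of -0.15 ± 0.23. Trim30b was higher in every cKO library, at 15.1, 8.43 and 8.86 against 7.25, 2.24 and 2.27 CPM, but did not pass the test (1.44 ± 0.58). None of the 20 pathway genes was called on day 7. Resident peritoneal markers, 2 of 4 detected, summed on day 7 to 5.04 to 7.65 CPM in WT and 15.4 to 17.1 CPM in cKO. Stromal markers summed to 4.38 to 40.4 and 86.4 to 124.5 CPM, and B cell markers to 57.8 to 192.9 and 14.3 to 56.4 CPM. The part of these markers was not tested.

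The sum of the cluster, of which Trim30a was the largest part in every library, describes how the genotypes came closer in summed level. Single members could differ from it, as Trim12a and Trim30b did on day 7. In WT the sum was 72.7 to 74.7 CPM on day 3, 101 to 200.4 CPM on day 5 and 243 to 494 CPM on day 7. In cKO it was 394 to 530.5, 279 to 783 and 464 to 579.7 CPM. The WT libraries of each later day were all above those of the day before, and the cKO days overlapped. Step by step, however, few members passed the test: in WT only Trim13, a ligase of the endoplasmic reticulum, was called between days 3 and 5, from 16.5, 7.39 and 11.6 to 5.31, 5.303 and 6.24 CPM (-1.07 ± 0.27, against 2.91% of all genes called, 0.646% higher and 2.26% lower). It was no longer called without WT day 3 replicate 3 or without any 1 library of WT day 5, and without WT day 3 replicate 1 the count was 2.

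No member was called between days 5 and 7 in WT (14 at an unadjusted p under 0.05, 8 called by DESeq2, against 0.15% of all genes by edgeR). Without WT day 5 replicate 1 the count was 8 and without WT day 7 replicate 3 it was 7, all of them higher on day 7. In cKO, Trim59, a membrane-anchored ligase, rose between days 3 and 5 from 18.7, 22.8 and 25.4 to 33.3, 52.6 and 50.6 CPM (1.03 ± 0.21) and Trim47 from 28.2, 28.7 and 24.4 to 29.9, 50.9 and 54.9 CPM (0.74 ± 0.20). Trim58, a ligase of late red cell precursors, fell from 31 to 2 counts over 3 libraries. These 3 calls stood against 4.89% of all genes, 1.61% higher and 3.28% lower, and none was left without cKO day 5 replicate 2 or 3, 1 without cKO day 3 replicate 1 or 2, and there were 5 without cKO day 5 replicate 1. Neutrophil markers summed to 2732 to 4205 CPM on day 3 and 504 to 1741 CPM on day 5 in cKO and proliferation markers to 959 to 1063 and 1328 to 2071 CPM, and their part in the result was not tested. Between days 5 and 7 no member was called in cKO (1 at an unadjusted p under 0.05, 0 by DESeq2, against 0.0501% of all genes).

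The change of the cKO effect from day 3 to day 7 was tested as an interaction, and no member passed (16 at an unadjusted p under 0.05, 9 called by DESeq2, 0.0439% of all genes called by edgeR). The estimate was -4.55 ± 1.05 for Trim30c, -2.85 ± 0.65 for Trim30d, -2.47 ± 0.48 for Trim34a and -2.12 ± 0.54 for Trim30a. The smallest adjusted p among these 4 was 0.0629 (edgeR). Leaving out WT day 7 replicate 1 gave 3 calls and WT day 7 replicate 3 gave 5, all with a smaller effect on day 7. The smaller difference on day 7 is thus a description of the levels, on which the tools did not give the same calls.

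**Figure D1:**
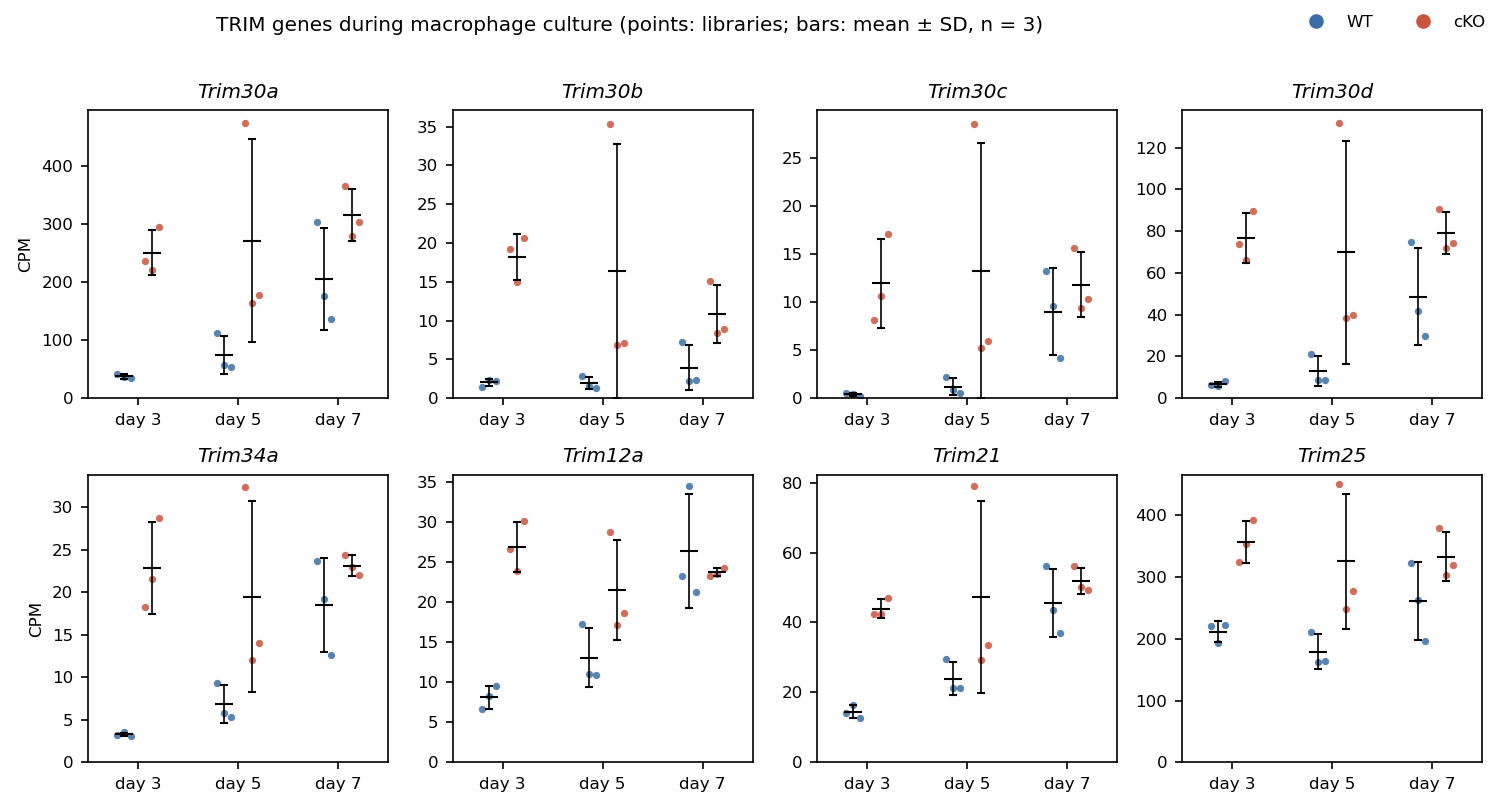
CPM of 8 TRIM genes (y axis from 0) by day of culture, with WT in blue and cKO in red, a point per library and the bar at mean ± SD (n = 3). On day 3 every cKO library stood above every WT library for all 8 genes, and by day 7 the groups overlapped for all but Trim30b.

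IFNg was the treatment with the most member calls. In WT BMDMs 17 members rose and 9 fell of 39 tested, or 66.7%, against 38.9% of all genes, 19.5% higher and 19.3% lower. Of the 9 tested cluster genes 8 rose, as did all 5 interferon-linked members, both lists being chosen with earlier results known. Trim30c went from 4.06, 2.55 and 3.24 CPM to 90.8, 112 and 78.5 CPM (4.83 ± 0.27, adjusted p = 1.28e-06, edgeR), the largest change in the family. Trim30b went from 2.19, 1.59 and 1.84 to 30.4, 34.98 and 19.4 CPM (3.90 ± 0.24). Their treated and untreated libraries were far apart. Trim30a rose from 142, 142 and 129 to 888, 978 and 763 CPM (2.67 ± 0.21) and Trim30d by 2.88 ± 0.32. Trim21 rose from 41.1, 45.7 and 38.2 to 218, 238 and 209.9 CPM (2.41 ± 0.13), the largest change outside the cluster.

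Smaller rises with IFNg in WT were those of Trim6 (1.66 on the log2 scale), Trim12a (1.66), Trim34a (1.59), Trim12c (1.48), Trim17 (1.41, from 22 counts in all), Trim11 (1.14), Trim46 (1.11) and Trim3 (0.94), and those of Trim14, Trim26, Trim56 and Trim25 between 0.64 and 0.86. Trim5 was at 7.68, 8.29 and 7.003 CPM without and 11.5, 11.6 and 11.6 CPM with IFNg, with an adjusted p of 0.054 (edgeR).

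The largest falls with IFNg in WT were those of Trim47 and Trim37. Trim47 fell from 55.96, 55.5 and 57.2 to 16.4, 10.9 and 20.6 CPM (-1.81 ± 0.38). Trim37, a ligase that marks histone H2A, fell from 56.1, 44.6 and 52.0 to 21.2, 13.4 and 16.9 CPM (-1.57 ± 0.24). In both the treated libraries lay below every untreated one. Trim24, a bromodomain co-regulator of transcription, and Trim65, a ligase of the RNA sensor MDA5, changed by -1.01 and -1.01. Trim62, Trim68, Trim36, Trim44 and Trim32 changed by between -0.92 and -0.41. The interferon pathway had 15 of 20 genes higher and none lower with IFNg in WT, and 17 of the 26 member calls were kept whichever library was left out.

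In cKO BMDMs, 12 members rose and 3 fell with IFNg (38.5% of 39, against 33.9% of all genes, 17.5% higher and 16.4% lower). Of these 15 calls, 14 were also made in WT, which is 93.3% of the calls in cKO and 53.8% of the 26 in WT. The exception was Trim41, at 37.99 and 38.4 CPM without and 83.3 and 50.5 CPM with IFNg (0.80 ± 0.21). This overlap stands beside the 66.7% of members tested and 38.9% of all genes called with IFNg in WT. Trim30c rose from 10.2 and 8.703 to 135 and 224 CPM, Trim30b from 5.11 and 4.69 to 82.7 and 81.97 CPM and Trim30a from 265 and 267 to 561 and 994 CPM. The treated cKO libraries were close together for Trim30b and far apart for Trim30c and Trim30a, with replicate 1, the smallest library of the series, as the lower one. In that library 57.1% of reads were unmapped, against 12.6% to 18.4% in the other day 8 libraries, and its TMM factor was 0.46, against 0.891 to 1.25. Without it 17 members rose and 7 fell. Trim24, Trim37 and Trim47 fell in cKO as in WT. A model of the 2 groups alone called 5 in place of 15. Proliferation markers, 6 of 6 detected, summed to 1157 to 1178 CPM without and 403 to 412 CPM with IFNg in cKO, and their part in the result was not tested. With the 2 ungrouped libraries placed by their titles, no member was called for IFNg in either genotype, nor between the genotypes with or without IFNg. Placed by their library names, 4 of the day 8 counts of calls were the same within 1.5-fold. Only the count between the genotypes with IFNg moved, and it rose.

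Between the genotypes few members were called on day 8. Without IFNg, Trim30b and Trim30c were higher in cKO (5.13% of 39 members, against 0.658% of all genes, 0.558% higher and 0.0994% lower). Trim30c was at 4.06, 2.55 and 3.24 CPM in WT and 10.2 and 8.703 CPM in cKO (1.52 ± 0.26, adjusted p = 0.0313, edgeR), and neither call was kept when any 1 library was left out. Trim30a stood at 142, 142 and 129 CPM in WT and 265 and 267 CPM in cKO, apart in every library but with an adjusted p of 0.131 (edgeR). B cell markers, up to 2 of 5 detected, summed to 7.68 to 13.8 CPM in WT and 1.54 to 2.44 CPM in cKO, and their part in the result was not tested. Nor was that of resident peritoneal markers, up to 3 of 4 detected, at 4.89 to 6.035 and 7.725 to 7.79 CPM. Of the interferon pathway 4 genes were higher.

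With IFNg, Trim30b, Trim26, Trim25 and Trim14 were higher in cKO than in WT (10.3% of 39 members, against 5.48% of all genes, 3.59% higher and 1.89% lower). Trim30b was at 30.4, 34.98 and 19.4 CPM in WT and 82.7 and 81.97 CPM in cKO (1.54 ± 0.23). Trim26 was at 65.2, 84.8 and 62.1 against 155 and 137 CPM (1.04 ± 0.16) and Trim25 at 279, 292 and 238 against 467 and 594 CPM (0.98 ± 0.15). For these 3 genes the genotypes did not overlap, whereas Trim30a, at 888, 978 and 763 CPM in WT and 561 and 994 CPM in cKO, overlapped (-0.17 ± 0.22). The comparison uses the same treated libraries as the IFNg effects above. The count was 1 without WT replicate 3 and 0 in a model of the 2 groups alone. Leaving out either cKO library raised it but left a single library in that group. Without replicate 2 that was replicate 1, in which 57.1% of reads were unmapped. Proliferation markers summed to 531 to 1032 CPM in WT and 403 to 412 CPM in cKO with IFNg, stromal markers, 4 of 4 detected, to 8.15 to 48.8 and 53.1 to 339.9 CPM, and B cell markers to 11.5 to 25.9 and 3.02 to 3.65 CPM, and the part of these markers was not tested.

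Whether IFNg acted differently in the genotypes was tested as an interaction, and no member was called (9 at an unadjusted p under 0.05, 0 by DESeq2, and 0% of all genes). The estimate was -1.26 ± 0.35 for Trim5, which was at 11.6 and 8.899 CPM without and 4.23 and 8.01 CPM with IFNg in cKO, and -1.12 ± 0.31 for Trim30a (adjusted p = 0.4 for both, edgeR). Without cKO IFNg replicate 2 the treated cKO group was replicate 1 alone, in which 57.1% of reads were unmapped and Trim5 had 7 counts. This comparison thus rests on single libraries.

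**Figure D2:**
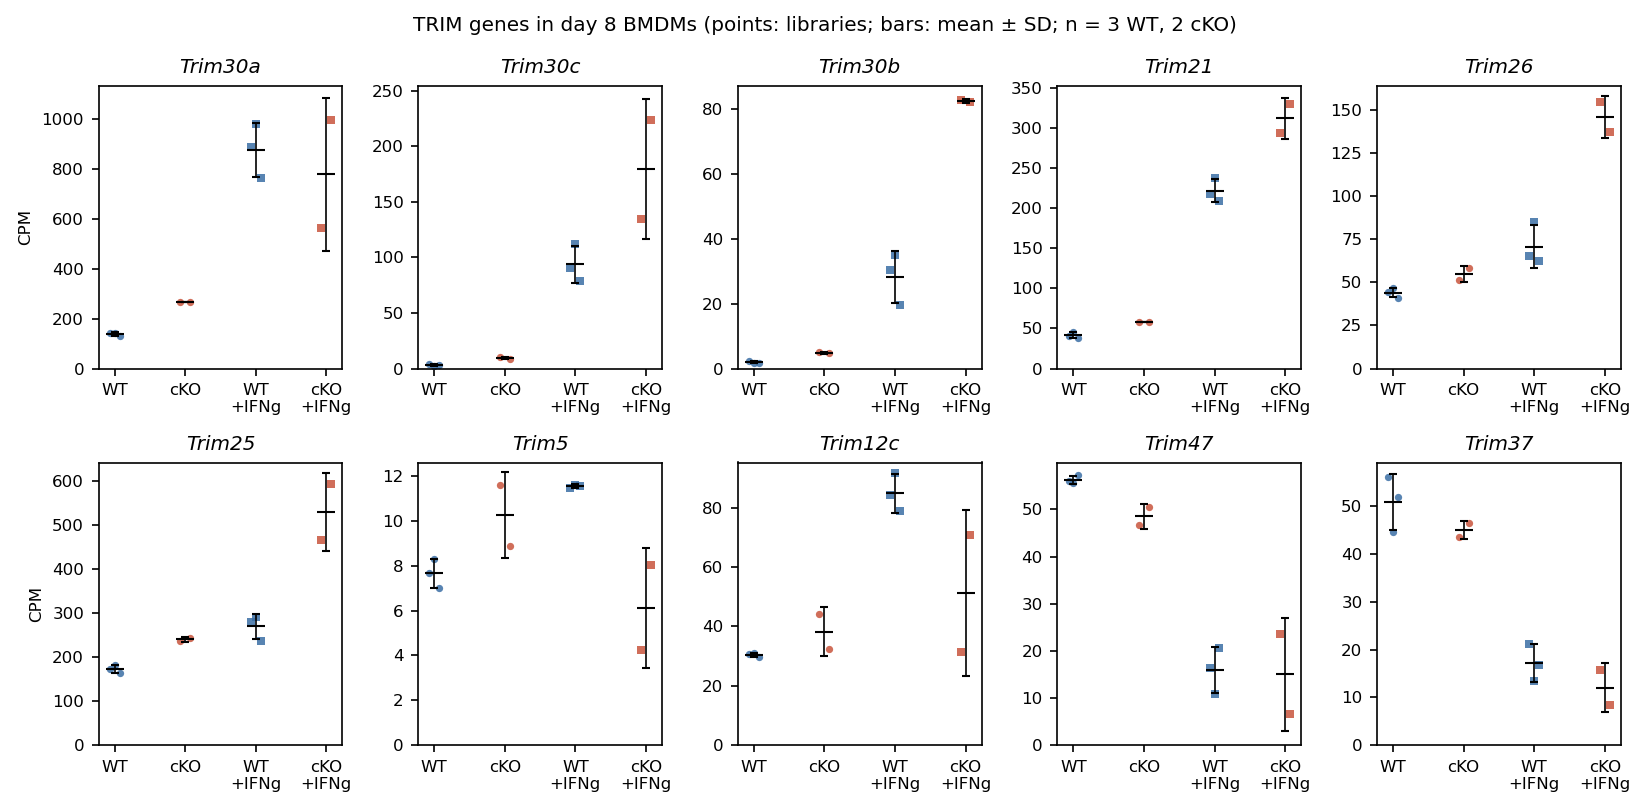
CPM of 10 TRIM genes (y axis from 0) in day 8 BMDMs, circles untreated and squares with IFNg, WT in blue (n = 3) and cKO in red (n = 2), a point per library and the bar at mean ± SD. The Trim30 genes and Trim21 rose with IFNg in both genotypes, Trim47 and Trim37 fell in both, and the 2 treated cKO libraries stood apart for Trim30a, Trim30c and Trim12c.

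In peritoneal macrophages no member was called (2 at an unadjusted p under 0.05, 1 called by DESeq2, against 1.06% of all genes by edgeR). Trim24 came nearest, at 12.8, 19.7 and 17.1 CPM in WT and 32.1, 31.9 and 33.5 CPM in cKO. It was higher in every cKO library (0.97 ± 0.20, adjusted p = 0.0761, edgeR). Trim13, the other of the 2, was lower in every cKO library (-0.79 ± 0.24, adjusted p = 0.27, edgeR). Trim30a was at 102, 124 and 104 CPM in WT and 120.5, 103 and 138 CPM in cKO, and Trim30b at 11.3, 21.4 and 15.8 and 26.2, 17.8 and 25.7 CPM. Both overlapped between the genotypes, with differences of 0.13 ± 0.17 and 0.51 ± 0.27. The summed level of the cluster was 212 to 274 CPM in WT and 234 to 315 CPM in cKO. Trim47, the most abundant member there, was at 213, 141 and 209.7 CPM in WT and 235, 91.1 and 106 CPM in cKO. Its cKO libraries differed from each other by more than the groups did. Of the interferon pathway 1 gene was higher.

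The antibody experiment addressed whether the difference depends on the type I interferon receptor. Without antibody 10 members were higher and none lower in cKO (21.3% of 47 tested, against 8.16% of all genes, 4.01% higher and 4.15% lower): Trim30a, Trim30b, Trim30c, Trim30d, Trim34a, Trim12a and Trim12c of the cluster, and Trim21, Trim56 and Trim45, which carries a filamin domain. Trim30a was at 77.7, 45.2 and 38.99 CPM in WT and 184, 157 and 104 CPM in cKO (1.46 ± 0.27, adjusted p = 0.00473, edgeR). Trim30d was at 26.3, 12.9 and 13.7 against 72.3, 59.4 and 42.6 CPM (1.72 ± 0.32). The genotypes did not overlap in either, although WT replicate 1 was above the other WT libraries. Trim12c rose by 1.52 ± 0.38 and Trim21 by 1.04 ± 0.31. Trim30b and Trim30c rose by 2.80 ± 0.48 and 2.53 ± 0.40 from no more than 28 WT counts each. Of the 10 calls, 9 had also been made on day 3, where 38.6% of the members tested and 8.65% of all genes were called. Without WT replicate 1, 18 members were higher and 4 lower, and without WT replicate 2, WT replicate 3 or cKO replicate 1, 6 were higher. Proliferation markers, 6 of 6 detected, summed to 919 to 1042 CPM in WT and 548 to 863 CPM in cKO, and B cell markers, 2 of 5 detected, to 13.2 to 21.02 and 5.87 to 9.85 CPM, and the part of these markers was not tested. Resident peritoneal markers, up to 3 of 4 detected, summed to 3.70 to 5.37 CPM in WT and 10.6 to 13.1 CPM in cKO. They were at 3.68 to 4.69 and 6.64 to 10.5 CPM with control antibody. With IFNAR1 antibody they were at 3.70 to 4.765 and 6.92 to 7.24 CPM, and their part was not tested.

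With control antibody 6 members were higher and Trim41 lower (14.9% of 47, against 5.11% of all genes, 3.43% higher and 1.68% lower). The 6, which were Trim30a, Trim30b, Trim30c, Trim30d, Trim34a and Trim12a, were all among the 10 called without antibody. Trim30a was at 41.9, 40.1 and 42.3 CPM in WT and 100.4, 92.3 and 67.6 CPM in cKO (1.07 ± 0.27). Trim34a was at 4.90, 4.53 and 2.93 against 9.49, 9.94 and 8.19 CPM (1.14 ± 0.25). Both were apart in every library. Trim41, a ligase that binds protein kinase C, was at 74.8, 73.5 and 70.7 against 59.6, 54.03 and 53.7 CPM (-0.39 ± 0.093). Leaving out 1 library lowered the count of 7 to between 0 and 4, and a model of these 2 groups alone gave 14 higher and 5 lower. B cell markers summed to 7.59 to 8.26 CPM in WT and 2.59 to 5.72 CPM in cKO, and their part in the result was not tested.

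With IFNAR1 antibody no member was called by edgeR (11 at an unadjusted p under 0.05, 2 by DESeq2, against 0.698% of all genes). In this arm 5 were called without WT replicate 3 and 2 without cKO replicate 1. Trim30a was at 33.1, 21.9 and 43.3 CPM in WT and 53.96, 49.5 and 47.8 CPM in cKO, higher in every cKO library but not past the test (0.62 ± 0.27, adjusted p = 0.382, edgeR). Trim30d was at 7.88, 3.58 and 10.2 against 15.03, 15.96 and 15.9 CPM (1.09 ± 0.33), with no overlap. Trim30b was at 0.423, 0.314 and 0.3701 against 0.381, 0.944 and 0.286 CPM and overlapped. In cKO the cluster summed to 212 to 339 CPM in the arm without antibody, to 150.1 to 207 CPM in the control arm and to 103 to 109 CPM in the IFNAR1 arm. In WT the 3 sums were 83.1 to 150.2, 90.8 to 91.6 and 45.98 to 88.1 CPM. Of the interferon pathway 11 genes were higher and 1 lower in the arm without antibody, 10 higher in the control arm and 2 higher in the IFNAR1 arm.

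Within cKO, 2 members were lower with IFNAR1 antibody than with control antibody (4.26% of 47, close to the 4.68% of all genes, 2.44% higher and 2.25% lower). Trim30b fell from 3.14, 1.26 and 1.76 to 0.381, 0.944 and 0.286 CPM (-2.13 ± 0.52) and Trim66, a bromodomain protein, from 1.86, 5.24 and 2.801 to 0.571, 0.393 and 0.858 CPM (-2.23 ± 0.50). No call was kept without cKO control replicate 2 or 3 or without cKO IFNAR1 replicate 1, and 1 was kept without any other of the 6 libraries. Trim30a, at -0.79, Trim30c, at -1.56, and Trim30d, at -1.10, were lower in every library with IFNAR1 antibody but had adjusted p-values of 0.116, 0.095 and 0.0681 (edgeR). Proliferation markers summed to 151 to 278 CPM with control and 494 to 1155 CPM with IFNAR1 antibody in cKO, stromal markers, 3 of 4 detected, to 156 to 290.3 and 40.7 to 84.4 CPM, and B cell markers to 2.59 to 5.72 and 9.34 to 18.5 CPM, and the part of these markers was not tested. These comparisons share the cKO control libraries with the comparison of genotypes above.

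In WT, IFNAR1 against control antibody gave 3 members higher and 1 lower (8.51% of 47, against 11.2% of all genes, 7.38% higher and 3.84% lower). Trim59 was at 5.74, 2.32 and 3.39 CPM with control and 49.9, 62.5 and 11.1 CPM with IFNAR1 antibody (3.44 ± 0.65), and Trim36 and Trim37 rose by 1.91 ± 0.49 and 0.86 ± 0.20. IFNAR1 replicate 3 was the lowest for Trim59, and without it 25 members were called, 7 higher and 18 lower. The count was 1 without control replicate 2, control replicate 3 or IFNAR1 replicate 1 and 2 without IFNAR1 replicate 2. Proliferation markers moved with these members, summing to 172 to 407 CPM with control and 838 to 2147 CPM with IFNAR1 antibody in WT (6 of 6 detected), and their part in the result was not tested. Trim41 fell from 74.8, 73.5 and 70.7 to 54.9, 57.1 and 60.5 CPM.

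With control antibody against none, Trim6 and Trim69 were lower in WT (4.26% of 47, against 9.74% of all genes, 3.78% higher and 5.96% lower). Trim6 was at 5.37, 8.28 and 7.44 CPM without and 3.29, 3.46 and 3.29 CPM with control antibody (-1.07 ± 0.25), and Trim69 had 53 and 9 counts. Neither call was kept without WT no antibody replicate 2 or 3 or without any 1 control library, and without WT no antibody replicate 1 the count was 8. Proliferation markers moved here too, from 919 to 1042 CPM without to 172 to 407 CPM with control antibody in WT, and their part in the result was not tested. In cKO no member was called (7 at an unadjusted p under 0.05, 1 by DESeq2, against 2.09% of all genes). Without cKO control replicate 1 the count was 1. Trim30a was at 184, 157 and 104 CPM without and 100.4, 92.3 and 67.6 CPM with control antibody in cKO, lower in every library (-0.77 ± 0.27, adjusted p = 0.183, edgeR). The change of the IFNAR1 antibody effect between the genotypes had no call (6 members at an unadjusted p under 0.05, 1 by DESeq2, 0% of all genes by edgeR), with -1.56 ± 0.87 for Trim30b and -0.45 ± 0.38 for Trim30a.

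**Figure D3:**
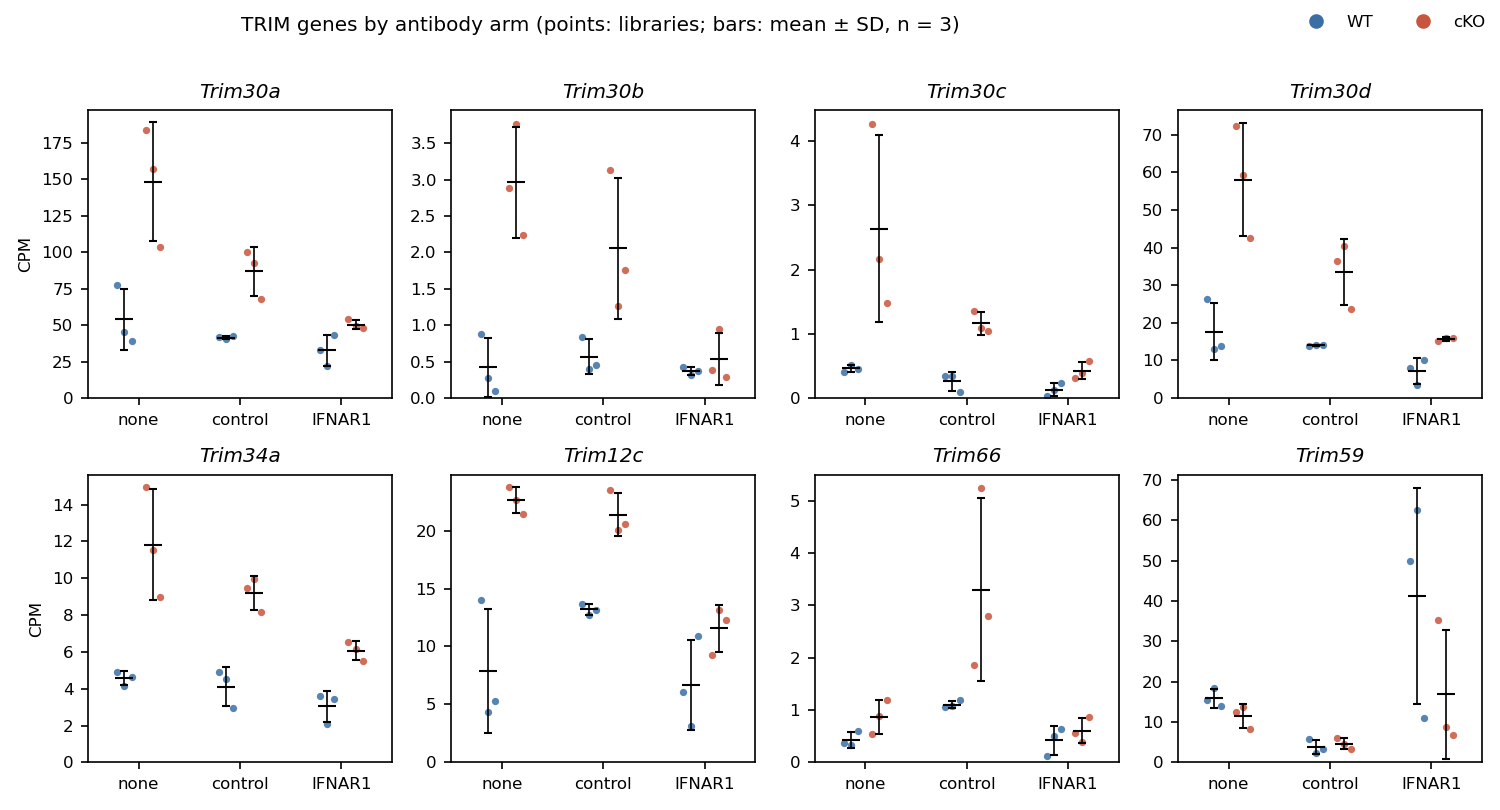
CPM of 8 TRIM genes (y axis from 0) by antibody arm, with WT in blue and cKO in red, a point per library and the bar at mean ± SD (n = 3). The cKO libraries stood above the WT libraries for Trim30a and Trim30d in each arm, with the smallest fold change under IFNAR1 antibody, and Trim66 and Trim59 followed other patterns.

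The 3 sets of BMDMs gave further comparisons of the same genotypes at greater depth. In set 1, 13 members were higher and 6 lower in cKO (42.2% of 45 tested, against 34.6% of all genes, 17.9% higher and 16.7% lower). In set 2, 20 were higher and 1 lower (46.7%, against 21.9%, 10.1% higher and 11.8% lower). In set 3, 11 were higher and 6 lower (37.8%, against 35.9%, 17.1% higher and 18.8% lower). In sets 1 and 3 the share of members called was thus close to that of all genes. The Trim30 genes had some of the largest changes. Trim30b was at 2.38, 1.84 and 1.87 CPM in WT and 8.19, 6.79 and 7.803 CPM in cKO in set 1. In set 2 it was at 1.52, 1.82 and 2.52 against 8.202, 9.51 and 7.44 CPM, and in set 3 at 2.72, 1.403 and 2.35 against 6.77, 6.21 and 7.84 CPM. Every cKO library was above every WT library, with log2 fold changes of 1.91 ± 0.20, 2.12 ± 0.18 and 1.68 ± 0.19. Trim30a rose by 0.91 ± 0.13, 0.84 ± 0.13 and 0.77 ± 0.13, Trim30d by 1.08 ± 0.17, 0.86 ± 0.17 and 0.95 ± 0.17, and Trim34a by 0.60 ± 0.12, 1.10 ± 0.12 and 0.46 ± 0.12. Trim25, Trim45 and Trim62, a ligase of CARD9, were also higher in all 3 sets. Neutrophil markers moved with genotype in sets 1 and 3 (59.3 to 110.2 CPM in WT set 1 and 196 to 281 CPM in cKO set 1, 66.5 to 120.3 CPM in WT set 3 and 194 to 319 CPM in cKO set 3, 7 of 8 detected) and overlapped in set 2. B cell markers, 2 to 5 of 5 detected, were lower in cKO in set 1 (109.6 to 188 CPM in WT and 42.7 to 59.3 CPM in cKO) and set 3 (95.05 to 192 and 37.6 to 58.8 CPM) and higher in set 2 (19.3 to 26.4 and 31.98 to 39.2 CPM). Stromal markers were at 10.6 to 15.3 CPM in WT and 22.9 to 32.7 CPM in cKO in set 3. Resident peritoneal markers, up to 3 of 4 detected, were higher in every cKO library of each set. Their WT and cKO sums were 8.94 to 11.1 and 18.7 to 19.8 CPM in set 1. In set 2 these were 8.52 to 9.78 and 19.01 to 23.7 CPM. In set 3 these were 7.52 to 8.38 and 15.4 to 17.2 CPM. The part of all these markers in the result was not tested.

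Some members did not move the same way in each set. Trim16, a RING-less protein of the response to damaged lysosomes, was at 22.9, 25.8 and 25.97 CPM in WT and 16.1, 15.6 and 19.6 CPM in cKO in set 1, lower in cKO (-0.54 ± 0.13), and likewise in set 3 (-0.51 ± 0.13). In set 2 it was at 12.5, 11.6 and 12.3 CPM in WT and 15.3, 18.9 and 14.1 CPM in cKO, higher in cKO (0.41 ± 0.13). The cKO libraries of the sets were near each other, and it was the WT libraries of set 2 that lay lower. Trim44, a RING-less relative of deubiquitinases, rose in sets 1 and 3 (0.35 ± 0.079 and 0.31 ± 0.079) and fell in set 2, from 97.02, 99.3 and 106 to 86.9, 83.5 and 85.5 CPM (-0.24 ± 0.078). Trim35 rose in sets 1 and 3, in set 3 from 114, 138 and 129 to 174, 204 and 205 CPM, and was at 244, 249 and 252 CPM in WT and 254, 250.3 and 256 CPM in cKO in set 2. The WT libraries of set 2 thus stood at the level of its cKO libraries, above both genotypes of set 3.

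Cluster members differed between the sets as well. Trim12a was at 16.4, 16.5 and 15.7 CPM in WT and 26.9, 25.6 and 26.7 CPM in cKO in set 2, and at 33.8, 23.7 and 26.3 and 27.03, 27.3 and 27.2 CPM in set 3. Its cKO libraries were again alike, and the WT libraries of set 3 lay on both sides of them. Trim30c was at 2.502, 2.67 and 2.39 against 8.45, 9.26 and 8.94 CPM in set 2 (1.81 ± 0.27), while in set 3, with 7.86, 2.96 and 4.34 CPM in WT and 6.94, 6.72 and 7.41 CPM in cKO, the genotypes overlapped. Trim34b, which shares 56.8% of its 50-base words with other genes, was tested only here and had 2 WT and 32 cKO counts in set 2. Trim46 rose in sets 2 and 3 (1.68 ± 0.22 and 0.72 ± 0.23), and Trim66 in set 1 from 8 to 41 counts.

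Members with the same call in sets 1 and 3 and no call in set 2 were Trim35 and Trim27, higher, and Trim3, Trim41, Trim47 and Trim65, lower. Trim47 was at 66.1, 76.2 and 74.3 CPM in WT and 46.03, 55.7 and 56.2 CPM in cKO in set 3 (-0.45 ± 0.13) and Trim3, a member with NHL repeats, at 39.4, 30.01 and 33.6 against 26.03, 27.4 and 26.6 CPM (-0.37 ± 0.10). In both the genotypes did not overlap. Trim32, also with NHL repeats, was lower in set 3 alone (-0.23 ± 0.078) and Trim17 in set 1 alone (-0.78 ± 0.28). Calls in set 2 alone were those of Trim6, Trim11, Trim12a, Trim12c, Trim14, Trim21, Trim24, Trim39 and Trim43c, all higher, of which Trim21 was at 31.7, 29.8 and 32.1 CPM in WT and 49.5, 54.4 and 47.1 CPM in cKO (0.69 ± 0.08).

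Sets 1 and 3 shared 15 calls, 78.9% of the 19 of set 1 and 88.2% of the 17 of set 3. The calls they shared over all genes were not counted. WT replicates 1 and 2 of set 1 were, over all genes, most like WT replicates 1 and 2 of set 3 (Pearson's r of 0.984 and 0.987 across genes, which are not independent), and whether the sets share animals is not given in the sources used here. They may not be independent. The change of the cKO effect was tested for all 3 pairs of sets, after the effects had been seen. Between sets 2 and 1 it differed for 12 members, 9 with a higher and 3 with a lower effect in set 2 (26.7% of 45, against 20% of all genes, 8.29% higher and 11.7% lower), and between sets 3 and 2 for 14, 2 higher and 12 lower in set 3 (31.1%, against 20.2%, 10.8% higher and 9.46% lower). Between sets 3 and 1 it differed for none (1 at an unadjusted p under 0.05, 0 by DESeq2, 0% of all genes). For Trim16 the difference was 0.95 ± 0.18 between sets 2 and 1 (adjusted p = 0.000557, edgeR). The 14 calls between sets 3 and 2 became 8 without WT set 2 replicate 3 or cKO set 2 replicate 3, 7 without WT set 3 replicate 1 and 9 without cKO set 3 replicate 3.

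**Figure D4:**
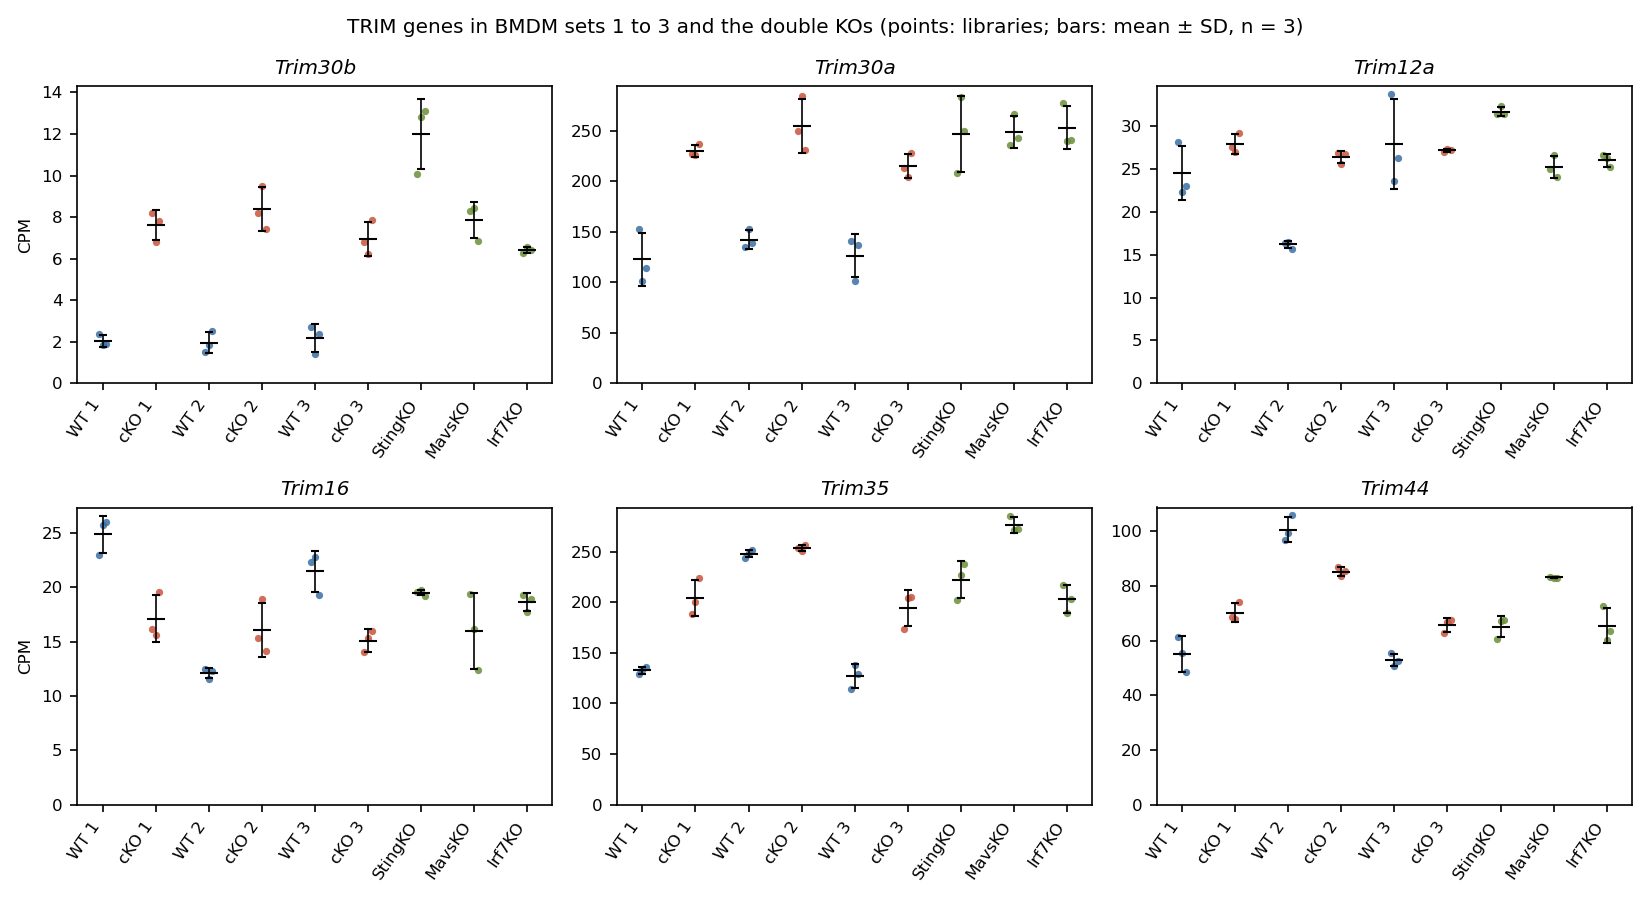
CPM of 6 TRIM genes (y axis from 0) in the WT (blue) and cKO (red) libraries of BMDM sets 1 to 3 and in the double KOs (green), a point per library and the bar at mean ± SD (n = 3). Trim30b and Trim30a were higher in each cKO set, whereas the WT levels of Trim12a, Trim16, Trim35 and Trim44 in set 2 stood apart from those of sets 1 and 3.

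The double KOs addressed whether the changes need STING, MAVS or IRF7. The labels tie no double KO to a set. Each was therefore compared with the mean of the 3 cKO sets and with the mean of the 3 WT sets. Genotype and batch cannot be told apart. By sample order, H3.3cKO:StingKO follows set 1, H3.3cKO:MavsKO set 2 and H3.3cKO:Irf7KO set 3. Set 3 and H3.3cKO:Irf7KO also share a list of 54146 genes, against 55536 for the others. Against the cKO set before them alone, H3.3cKO:MavsKO and H3.3cKO:Irf7KO had no member called. Their calls against the mean of the cKO sets thus depend on the reference. Whether the sample order marks batches was not tested. Tmem173, which encodes STING, was at 5.01 to 6.10 CPM in H3.3cKO:StingKO and at 68.2 to 91.7 CPM in the cKO sets. Irf7 was at 98.3 to 112 CPM in H3.3cKO:Irf7KO, below the 249 to 470.2 CPM of the cKO sets. Mavs was at 37.2 to 37.9 CPM in the libraries labelled H3.3cKO:MavsKO and at 36.0 to 51.6 CPM in the cKO sets. Counts over the whole gene do not separate these groups and cannot test a loss of some exons. For these BMDMs the paper reports genotyping PCR and RNA-seq tracks with Mavs exons missing, without naming the exons missing in the tracks. It also reports loss of Mavs by qRT-PCR, with primers in 2 exons that it names.

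Against the WT sets, the Trim30 genes were higher in all 3 double KOs. In H3.3cKO:StingKO 21 members were higher and 6 lower (27 of 45, against 40.2% of all genes, 20.5% higher and 19.7% lower), in libraries labelled H3.3cKO:MavsKO 19 and 2 (46.7%, against 43.2%, 22.1% higher and 21.2% lower) and in H3.3cKO:Irf7KO 17 and 5 (48.9%, against 31.9%, 15.1% higher and 16.8% lower). Trim30b was at 10.1, 12.8 and 13.1 CPM in H3.3cKO:StingKO, 8.29, 8.43 and 6.85 CPM in libraries labelled H3.3cKO:MavsKO and 6.25, 6.57 and 6.403 CPM in H3.3cKO:Irf7KO. Each was above every WT library of the sets, which reached 2.72 CPM, with log2 fold changes of 2.56 ± 0.14, 1.95 ± 0.14 and 1.65 ± 0.15. Trim30a was higher by 0.93 ± 0.10, 0.93 ± 0.10 and 0.96 ± 0.10, and Trim30d, Trim30c, Trim34a, Trim34b, Trim12c, Trim21, Trim26, Trim35, Trim39, Trim45 and Trim46 were also higher in all 3. Against WT set 2 alone, however, Trim35 was lower in H3.3cKO:Irf7KO (-0.29, adjusted p = 0.00726, edgeR) and at -0.16 in H3.3cKO:StingKO (adjusted p = 0.116), and Trim44 was lower in the libraries labelled H3.3cKO:MavsKO (-0.28). The 3 comparisons share the WT libraries.

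Against the cKO sets, the double KOs differed in number of calls. In H3.3cKO:StingKO 14 members were higher and 7 lower (46.7%, against 36.4% of all genes, 19.1% higher and 17.2% lower). Trim30c and Trim30b were higher by 0.75 ± 0.19 and 0.65 ± 0.12, and Trim30a by 0.086 ± 0.11, which did not pass the test. Trim47 was at 91.4, 76.3 and 84.4 CPM, above the 46.0 to 68.3 CPM of the cKO sets (0.63 ± 0.10). Others higher were Trim46, Trim14, Trim41, Trim8, Trim11, Trim16, Trim26, Trim34a, Trim21, Trim32 and Trim12a, by 0.22 to 0.55. Those lower were Trim36, a microtubule-associated ligase, at 5.75, 6.71 and 5.44 CPM (-0.76 ± 0.14), Trim59 (-0.73 ± 0.15) and Trim23, which ends in an ARF domain, Trim33, Trim37, Trim24 and Trim44, by -0.39 to -0.17. Stromal markers, 3 of 4 detected, were at 162 to 199 CPM in H3.3cKO:StingKO and at 22.9 to 68.99 CPM in the cKO sets, and proliferation markers, 6 of 6 detected, at 1053 to 1183 and 1279 to 1705 CPM, and the part of these markers was not tested. Against cKO set 2 alone 12 members were called in place of 21.

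In the libraries labelled H3.3cKO:MavsKO, Trim46, Trim62, Trim35, Trim25 and Trim65 were higher and Trim59 lower (13.3%, against 9.32% of all genes, 5.9% higher and 3.42% lower). Trim35 was at 285, 272 and 272 CPM (0.36 ± 0.064) and Trim25 at 436, 418 and 422 CPM (0.26 ± 0.072). Trim25 stood at 423, 425 and 423 CPM in cKO set 2, and against set 2 alone no member was called. Against set 3 alone 10 were, and without MavsKO replicate 2 the count was 3. No cluster gene was called, with 0.043 ± 0.13 for Trim30b and 0.095 ± 0.11 for Trim30a. Stromal markers were at 80.2 to 288 CPM and neutrophil markers, 7 of 8 detected, at 57.05 to 118 CPM, against 22.9 to 68.99 and 151 to 319 CPM in the cKO sets. Their part in the result was not tested.

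In H3.3cKO:Irf7KO, Trim25, Trim27 and Trim65 were lower (6.67%, against 10.6% of all genes, 4.81% higher and 5.75% lower). Trim25 was at 320.0, 283 and 279.6 CPM (-0.27 ± 0.074), Trim27 changed by -0.27 ± 0.065 and Trim65 by -0.17 ± 0.052. Again no cluster gene was called, with -0.25 ± 0.13 for Trim30b and 0.12 ± 0.11 for Trim30a. Against set 3 alone no member was called and against set 2 alone 7 were, and leaving out Irf7KO replicate 2 or 3 left 1 call. Neutrophil markers were at 84.4 to 114.8 CPM, against 151 to 319 CPM in the cKO sets, and their part in the result was not tested.

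Counted by libraries alone, without a test, 23 members were higher and 4 lower in every cKO library than in every WT library on day 3, where 34.1% of all genes did not overlap. The counts were 18 and 5 on day 5 (26.5% of all genes) and 5 and 2 on day 7 (16.6%). On day 8 they were 19 and 4 without IFNg (31.9%) and 14 and 5 with it (34.4%), and 2 and 1 in the peritoneal libraries (15%). Among the antibody arms they were 19 and 6 in the arm without antibody (39.4%), 17 and 7 in the control arm (36.7%) and 7 and 2 in the IFNAR1 arm (8.67%). In sets 1, 2 and 3 they were 17 and 6 (41.4%), 26 and 6 (44.5%) and 12 and 9 (43.2%). IFNg separated 21 members upwards and 11 downwards in WT (62% of all genes) and 15 and 13 in cKO (59.6%).

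Over the 12 comparisons of cKO with WT, Trim30b was higher in 9, Trim30a, Trim30c, Trim30d and Trim34a in 7 each and Trim25 in 6. Trim41 and Trim47 were lower in 3 each and called higher in none. Their estimates were positive in 5 and 2 of the 12, though, reaching 0.48 and 1.02 (log2). The 12 are not 12 independent tests, since the groups of one experiment share an estimate of the spread and sets 1 and 3 may share animals.

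**Figure D5:**
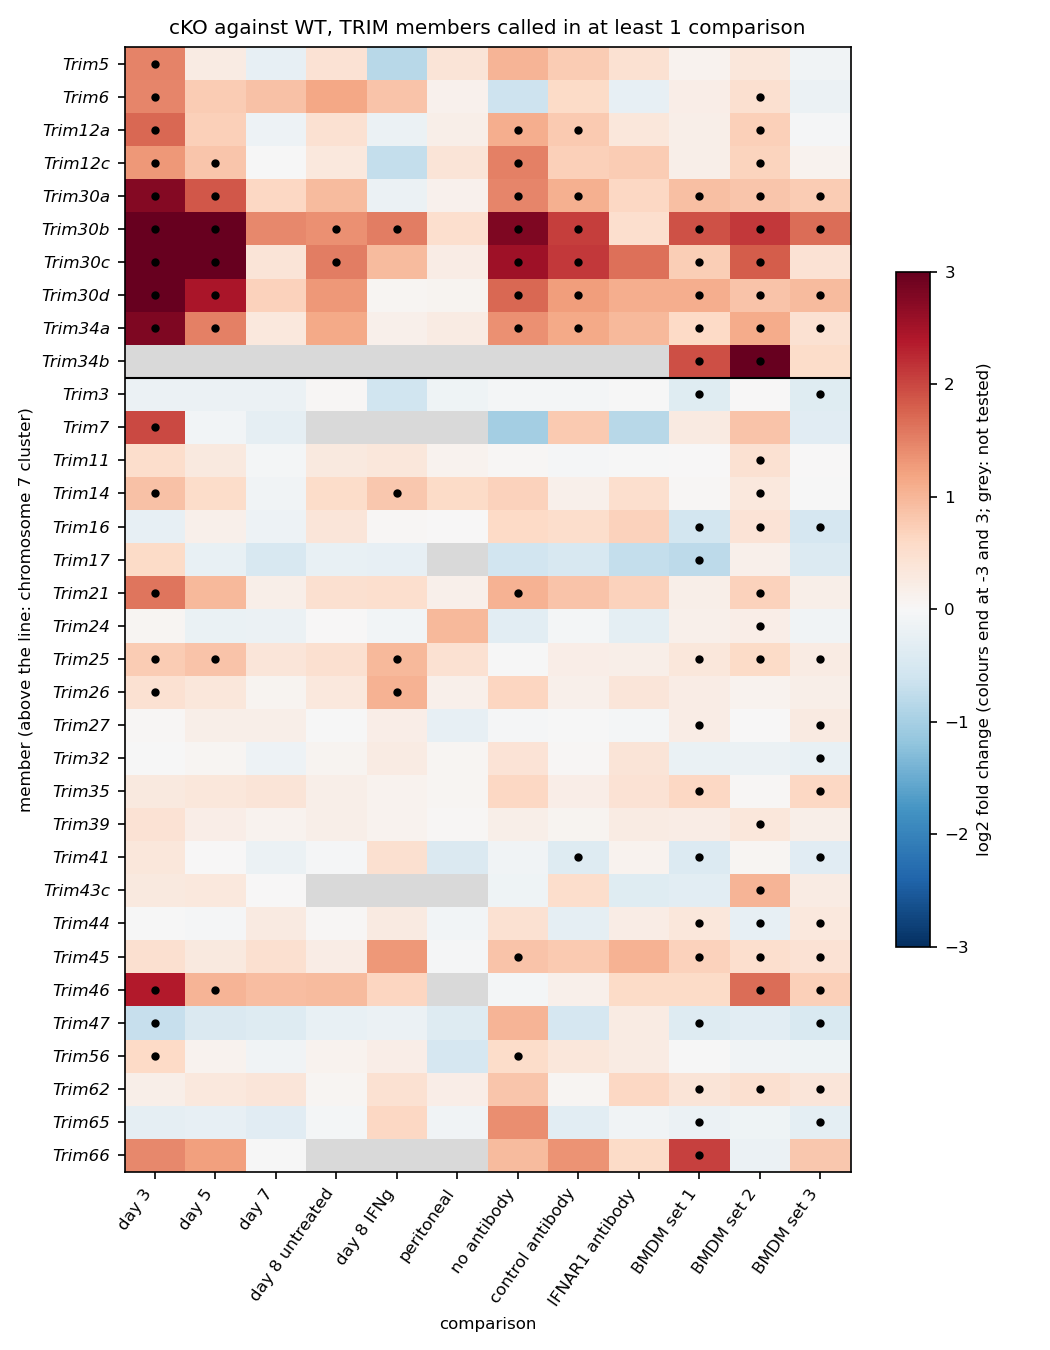
Log2 fold change of cKO against WT (colour, red higher and blue lower, ending at -3 and 3) for members called in at least 1 of 12 comparisons (rows), with the comparisons as columns, a dot where the adjusted p is under 0.05 in edgeR's quasi-likelihood test and grey where a member was not tested. The rows above the line, the chromosome 7 cluster, hold most of the dark red, and no dot stands in the columns of day 7, peritoneal macrophages and IFNAR1 antibody.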

How the data were processed

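Raw counts per gene were deposited for each of the 81 libraries, made by the authors in the CCBR pipeliner with Cutadapt and STAR on mm10. The versions of Cutadapt and STAR and the annotation are not given in the sources used here. Among the BMDM sets and double KOs, set 3 and H3.3cKO:Irf7KO list 54146 genes and the others 55536, and 54079 were joined across them. The column counted without strand was used, and only protein-coding genes. Within an experiment all groups entered one model. Genes passed filterByExpr (a count of 10 and a total of 15), counts were scaled by TMM, and comparisons used the quasi-likelihood test of edgeR 4.0.16 in R 4.3.3 with Benjamini-Hochberg adjustment over all genes tested. The code was tested on simulated data. Alternatives were DESeq2 1.42.0, RLE scaling, no filter, the stranded column, the older quasi-likelihood fit, the compared groups alone, the replicate number as a block, other references for the double KOs, other placements of 2 day 8 libraries, and leaving out each library. Members were named where called, up to 30 per comparison, beside the cluster, the interferon-linked genes and the 5 highest by RPKM in WT. The members, the lists and the comparisons between sets were chosen with earlier results of these data known, and the older fit and the set comparisons were added after seeing the data.

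Total counts per library ranged from 3614967 to 45581528, and the precision of members with few counts is low. The labels call the replicates biological, and no pair was closer than sampling noise (lowest chi-square per degree of freedom 3.67). Same-numbered peritoneal libraries deviated together (3 pairs, r 0.144 to 0.194), and the block changed no call there. Gene coordinates and promoters came from GRCm38. Between 33.0% and 56.8% of the 50-base words of Trim34b, Trim43a, Trim43b, Trim43c, Trim34a, Trim5 and Trim12c recur in other genes. Exons of Trim47 and Trim65 overlap each other on the same strand, over 8.2% and 3.8% of their length.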

Additional observations from a re-analysis of the deposited data

Results flagged for a closer look

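Labels of 2 cKO libraries from day 8 contradict themselves over IFNg, so both entered no comparison. Their values lay outside those of the groups named in their titles. The cluster sum was 382.9 CPM in the library titled as IFNg treated and 1837 CPM in the one titled as untreated.

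The effect of cKO differed between BMDM sets for several members in an interaction test of edgeR's quasi-likelihood method, with the pairs of sets compared after their effects had been seen. Between sets 2 and 1 the difference of the log2 fold changes was 1.32 for Trim43c, 1.10 for Trim46, 0.95 for Trim16, 0.52 for Trim12a, 0.50 for each of Trim21, Trim12c and Trim34a, 0.45 for Trim41, 0.44 for Trim11, -0.59 for Trim44, -0.59 for Trim35 and -2.21 for Trim66. Between sets 3 and 2 it was 0.58 for Trim35, 0.55 for Trim44, -0.31 for Trim24, -0.44 for Trim11, -0.52 for Trim21, -0.56 for Trim12c, -0.64 for Trim34a, -0.66 for Trim6, -0.75 for Trim12a, -0.92 for Trim16, -0.96 for Trim46, -1.18 for Trim15, -1.21 for Trim7 and -1.37 for Trim30c. Trim43c, Trim66, Trim15 and Trim7 rest on few counts. These differences stand beside 20% and 20.2% of all genes that differed between the same sets, and their cause was not tested.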

How the results depend on the processing

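Counts of members called are given by setting, and for each the cause of the change was not tested. DESeq2 called 3 for WT between days 3 and 5, 8 for WT between days 5 and 7, 9 for the change of the cKO effect from day 3 to day 7, 5 for cKO on day 8 untreated, 1 in peritoneal macrophages, 2 for cKO with IFNAR1 antibody, 5 and 10 for IFNAR1 against control antibody in cKO and WT, 1 and 5 for control antibody against none in cKO and WT, and 1 for the change of the antibody effect. Models of only the groups compared called 0 on day 5, 7 on day 8 untreated, 0 for cKO on day 8 with IFNg, 5 for IFNg in cKO, 19 for cKO with control antibody, 0 and 0 for IFNAR1 against control antibody in cKO and WT, 4 and 8 for control antibody against none in cKO and WT, 12 in set 1 and 11 in set 3. Without the filter on low counts, 4 were called for WT between days 5 and 7, 4 for the change from day 3 to day 7, 5 for cKO on day 8 untreated, 1 for the change of the IFNg effect, 1 in peritoneal macrophages and 8 between sets 3 and 2. The older fit called 1 for cKO between days 3 and 5, 1 on day 8 untreated, 1 for IFNAR1 against control antibody in cKO and 1 for control antibody against none in WT. The stranded column gave 1, 1 and 0 for cKO between days 3 and 5, day 8 untreated and control antibody against none in WT. With the 2 ungrouped day 8 libraries placed by their titles, 0 were called for cKO untreated, cKO with IFNg, IFNg in WT and IFNg in cKO, and placed by their library names 7 for cKO with IFNg. Against cKO set 2 alone, H3.3cKO:StingKO gave 12, MavsKO 0 and Irf7KO 7, and against set 3 alone MavsKO gave 10 and Irf7KO 0. Ranked by CPM in place of RPKM, at least 3 of the 5 highest members were shared.

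With the replicate block, 2 members were called for WT between days 3 and 5, 6 for WT between days 5 and 7, 6 for the change from day 3 to day 7, 0 on day 8 untreated, 1 for cKO with IFNAR1 antibody, 9 for IFNAR1 against control antibody in WT and 1 for control antibody against none in cKO. Outside peritoneal macrophages same-numbered libraries did not all deviate together (27 of 45 same-numbered pairs over 0.1 in the time course, where the median r was 0.143 against -0.0743 for different numbers, 3 of 13 on day 8, 18 of 45 with antibody and 12 of 108 in the sets).

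Leaving out 1 library at a time gave 11 to 15 on day 3, 0 to 10 on day 5, 0 to 0 on day 7, 0 to 2 for WT between days 3 and 5, 0 to 8 for WT between days 5 and 7, 0 to 5 and 0 to 0 for cKO over the same steps, and 0 to 5 for the change from day 3 to day 7. On day 8 it gave 0 to 0 untreated, 1 to 16 with IFNg, 18 to 21 and 11 to 24 for IFNg in WT and cKO, and 0 to 12 for their difference. It gave 0 to 0 in peritoneal macrophages, 6 to 22 without antibody, 0 to 4 with control and 0 to 5 with IFNAR1 antibody, 0 to 1 and 1 to 25 for IFNAR1 against control antibody in cKO and WT, 0 to 1 and 0 to 8 for control antibody against none in cKO and WT, and 0 to 0 for the change of the antibody effect. In sets 1, 2 and 3 it gave 15 to 20, 16 to 18 and 12 to 17, with 8 to 11 between sets 2 and 1, 0 to 0 between sets 3 and 1 and 7 to 18 between sets 3 and 2. StingKO, MavsKO and Irf7KO gave 15 to 21, 3 to 6 and 1 to 4 against the cKO sets and 21 to 30, 17 to 23 and 17 to 23 against the WT sets.

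Single-set references turned the direction of 8 called members, the log2 fold change becoming 0.0244 for Trim65 in Irf7KO against cKO set 3, and, against a WT set, -0.16 for Trim35 and 0.13 for Trim59 in StingKO (set 2), -0.0243 for Trim6 in StingKO (set 3), -0.28 for Trim44 in MavsKO (set 2), -0.29 for Trim35 in Irf7KO (set 2), and -0.10 for Trim12a and -0.0105 for Trim5 in Irf7KO (set 3). Depth limits members under about 10 counts per library, and single libraries decide several counts.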

Other observations

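The 2 cKO libraries of day 8 without a group stood apart from each other in most interferon-responsive members. Trim30a was at 221.1 CPM in the library titled as IFNg treated and at 1039 CPM in the one titled as untreated, beside 265 and 267 CPM in the grouped untreated and 561 and 994 CPM in the grouped treated cKO libraries. Trim30b was at 4.54 and 94.6 CPM, beside 5.11 and 4.69 and 82.7 and 81.97 CPM. Trim21 was at 52.6 and 318.6 CPM and Trim26 at 52.3 and 123.4 CPM in the same order. No group was assigned from these values.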
